A study of Mus musculus with 24 samples.

Results

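The genes described here are the replication-dependent histone genes, which are named Hist1, Hist2, Hist3 and Hist4 on the array. They were chosen by name alone, as every probe whose gene name in the scanner files starts with 1 of those 4 stems. This gave 68 probes for 56 genes, out of 37074 gene names on the array. The livers came from 24 male C57Bl6J mice, the third generation of lineages kept on a supplemented growing diet, and each liver was measured on 1 Agilent array. The reference group (STD_Cont in the labels, 9 mice) descended from the control lineage, supplemented with sunflower oil rich in oleic acid, and was fed a low-fat diet. The HFoleic group (HFD_Cont, 8 mice) was of the same control lineage and was fed a diet high in fat and sucrose, whereas the HFepa group (HFD_O3, 7 mice) came from the omega 3 lineage, whose supplement was a fish oil with much eicosapentaenoic acid (EPA), and ate that same diet. All mice were killed while fasting, and no mouse of the omega 3 lineage on the low-fat diet was measured here, so that lineage could be compared only on the high-fat diet. Labels name each array as a replicate of its group and do not say whether mice shared a litter or cage, so the p-values measure the spread between these mice.

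Histones are the proteins around which DNA is wound. The core histones H2A, H2B, H3 and H4 form the nucleosome, and H1 binds the linker DNA between nucleosomes. The replication-dependent genes lie in clusters, have no introns, and are transcribed mainly in S phase, when new DNA has to be packed. Most of their mRNAs end in a conserved stem-loop instead of a poly(A) tail, although some members also make polyadenylated transcripts, mainly in cells that have stopped dividing. The liver of an adult mouse divides little. The labelling kit used here primes from poly(A) tails, so the signal of a histone probe depends both on the amount of transcript and on how much of it carries such a tail, and these cannot be told apart. In whole liver, fewer cells of a type and less RNA per cell cannot be told apart either.

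Of the 68 probes, 48 (42 genes) are named for the Hist1 cluster on mouse chromosome 13. A further 14 (10 genes) belong to Hist2 on chromosome 3, 5 (3 genes) to Hist3 on chromosome 11 and 1 to Hist4h4 on chromosome 6. The probe for Hist1h2al, now named H2af-ps2, lies outside the cluster, at chr13:51295494-51295553. Hist1h2al and Hist3h2bb-ps carry the names of pseudogenes, and neither was tested. By type there are 8 probes for H1, 21 for H2A, 18 for H2B, 10 for H3 and 11 for H4. A probe was tested when some group had it marked by the scanner software as well above background in 75% or more of its mice, which kept 50 histone probes for 43 genes, and 45 of the 50 were well above background on all 24 arrays. No member was saturated on any array.

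Several probes are near copies of each other, since the coding sequences of histone genes are very alike, and 20 of the 68 share a run of at least 20 bases with another histone probe. The 3 probes for H4 below share the 17 bases in capitals, lie upstream of the stem-loop, and are shown because they are among the members that rose. Positions are those given in the scanner files, in the mouse build mm9.
Hist1h4d, chr13:23673515-23673574, plus strand: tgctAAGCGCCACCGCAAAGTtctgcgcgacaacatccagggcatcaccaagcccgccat
Hist1h4j, chr13:21826989-21827048, plus strand: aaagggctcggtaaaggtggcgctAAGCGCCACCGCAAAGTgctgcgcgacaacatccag
Hist1h4k, chr13:21842279-21842338, minus strand: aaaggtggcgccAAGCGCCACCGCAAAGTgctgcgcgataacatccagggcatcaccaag
Signal at these 3 probes cannot be assigned to 1 gene with certainty, and their values are not independent of each other. Runs were compared between probes only. Whether other probes in coding sequence bind transcripts of several genes was not tested.

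The largest such group held 10 probes for H2A, of which 9 were tested. The 4 shown here share the 29 bases in capitals and are shown because near-identical probes give 1 signal for several genes.
Hist1h2af, chr13:23626113-23626172, plus strand: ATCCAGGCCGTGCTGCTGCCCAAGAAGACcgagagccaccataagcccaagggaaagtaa
Hist1h2ah, chr13:22127035-22127094, minus strand: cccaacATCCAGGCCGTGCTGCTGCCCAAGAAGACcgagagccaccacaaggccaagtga
Hist2h2aa2, chr3:96043781-96043840, minus strand: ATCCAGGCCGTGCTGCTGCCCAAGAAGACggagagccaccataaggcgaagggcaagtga
Hist2h2ac, chr3:96024378-96024437, minus strand: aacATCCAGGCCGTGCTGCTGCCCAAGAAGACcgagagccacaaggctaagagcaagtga
A probe for H2afj, a replication-independent H2A gene, shares 20 bases or more with 6 of the histone probes for H2A.

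Other probes carry the letters of the stem-loop itself. A search of the probe sequences for either side of it, GGCNCTTTT or TTNAGNGCC, in which the final TT of the first is also the start of the second, found 12 of the 68 histone probes (17.6%) and 0.359% of all 56605 probes. On the opposite strand it found 0 histone probes and 0.38% of all probes. The 12 probes are classed as on the stem-loop from these letters alone. The matching probe for Hist1h1a starts at base 351 of its transcript, and that for Hist1h1c at base 654. The stretches shown here carry the motif in capitals and are shown because the position of a probe relative to this loop decides which transcripts it can bind.
Hist1h3a, bases 31 to 60 of the probe: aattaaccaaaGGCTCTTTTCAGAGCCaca
Hist2h2bb, bases 30 to 59 of the probe: tacccaaaaGGCTCTTTTCAGAGCCacttt
Hist1h2ab, bases 31 to 60 of the probe: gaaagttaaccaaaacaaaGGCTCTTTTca
Hist1h1c, bases 31 to 60 of the probe: gcctcccctaacaatccaaaaGGCTCTTTT
The other 56 probes were split by the position in the transcript that the files give. Those for core histones that start after base 554, and those for H1 that start after base 714, lie past the furthest stem-loop end found among the probes of that kind, and there were 17 of these. The remaining 39 start at or before these limits and are classed as upstream. The limits are pooled over genes and were not checked against each transcript. A second probe for Hist3h2ba starts at base 542 and is classed as upstream, although the stem-loop probe of that gene starts at base 391.

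Promoters of the members were read from RefSeq (GRCm38.p6) for 49 of the 56 genes, as 50 windows from 250 bases before to 50 bases after the start, and searched on both strands. The letters CCAAT were in all 6 H1, 17 H2A, 12 H2B and 7 H3 windows and in 2 of the 8 H4 windows, against 37.4% of all 32851 promoters. GGTCC, part of the element that the H4-specific factor HINFP is known to bind, was in 8 of 8 H4 windows, in 20 of the 50 histone windows (40%) and in 45.5% of all promoters. ATTTGCAT, the octamer element known from H2B genes, was in 6 of 12 H2B and 7 of 17 H2A windows, in 0 of the H1, H3 and H4 windows and in 1.7% of all promoters. TATAAA was in 29 of the 50 (58%) and in 13.6% of all. Some H2A and H2B windows overlap on opposite strands, such as those of Hist1h2aa and Hist1h2ba. The same letters can then be counted in both windows, so these counts are not independent. The 150 bases before the start are shown for 3 members that rose and for Hist1h1c, whose values went the other way, with these motifs on either strand in capitals.
Hist1h2bb, chr13:23746584-23746733, plus strand: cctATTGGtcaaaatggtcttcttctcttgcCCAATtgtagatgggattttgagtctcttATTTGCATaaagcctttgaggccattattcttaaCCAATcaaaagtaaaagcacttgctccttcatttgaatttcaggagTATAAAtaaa
Hist1h4d, chr13:23581418-23581567, plus strand: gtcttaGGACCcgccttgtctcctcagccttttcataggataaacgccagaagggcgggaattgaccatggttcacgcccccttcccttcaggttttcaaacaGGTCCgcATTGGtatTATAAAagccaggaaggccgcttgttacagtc
Hist1h4j, chr13:21734884-21735033, plus strand: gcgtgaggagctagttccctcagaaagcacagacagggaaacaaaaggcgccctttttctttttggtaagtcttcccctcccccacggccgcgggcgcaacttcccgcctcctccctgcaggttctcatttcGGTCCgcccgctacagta
Hist1h1c, chr13:23738657-23738806, plus strand: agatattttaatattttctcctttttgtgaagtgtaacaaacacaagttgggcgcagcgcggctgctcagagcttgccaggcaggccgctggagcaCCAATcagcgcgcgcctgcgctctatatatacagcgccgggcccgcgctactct
The shared letters are a description of these windows, and no binding was measured.

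Between 50.9% and 60.8% of probes were well above background on each array. Markers of hepatocytes were well above background on all 24 arrays (8 of 8 genes). The mice reference replicate 5 and HFepa replicate 7 stood apart in lists of marker genes. In reference replicate 5, the mean log2 signal of 13 tested genes of G2 and mitosis, counted from the mean of the reference group, was 2.01, against -0.49 to 0.502 in the other 23 mice. Its mean was 1.475 for the cholangiocyte and 1.455 for the stellate cell and fibroblast markers, each the highest of all mice. The same mouse had the highest mean histone signal of its group, 0.264 above the group mean on the log2 scale against -0.154 to 0.126 in the others. In HFepa replicate 7 the mean of 3 exocrine pancreas markers was 1.171, against at most 0.252 in the other 23 mice, and that of the erythroid markers was -0.845, against -0.511 or more. Its mean histone signal was -0.05, inside the range of its group. Values without these mice are given below for the histone probes and for the lists whose median shifted by more than 0.1 or whose count of calls changed, and these fits were chosen after seeing the data.

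The first question was whether the histone genes differed between mice of 1 lineage on the high-fat and on the low-fat diet. Most of the values lay in 1 direction, and the differences were small. Of the 50 tested probes, 13 (26%) were called higher in HFoleic than in reference and 0 lower, at an adjusted p under 0.05 in limma, where 4.05% of all 30003 tested probes were called higher and 3.19% lower. The 13 probes belong to 11 of the 43 genes, and their levels were 1.20 to 1.53 times those of the reference group. They comprised 7 of 11 probes for H4, 4 of 12 for H2B, 1 of 13 for H2A, 1 of 7 for H3 and 0 of 7 for H1. The median difference of the 50 probes was 0.27 on the log2 scale, against -0.001 over all tested probes, and 43 of the 50 were higher and 7 lower. After averaging the probes that share 20 bases or more, 10 of 36 features were called higher. Without reference replicate 5, 17 of 50 probes were called higher, 11 of them among the 13, where 3.83% of all tested probes were.

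**Figure D1:**
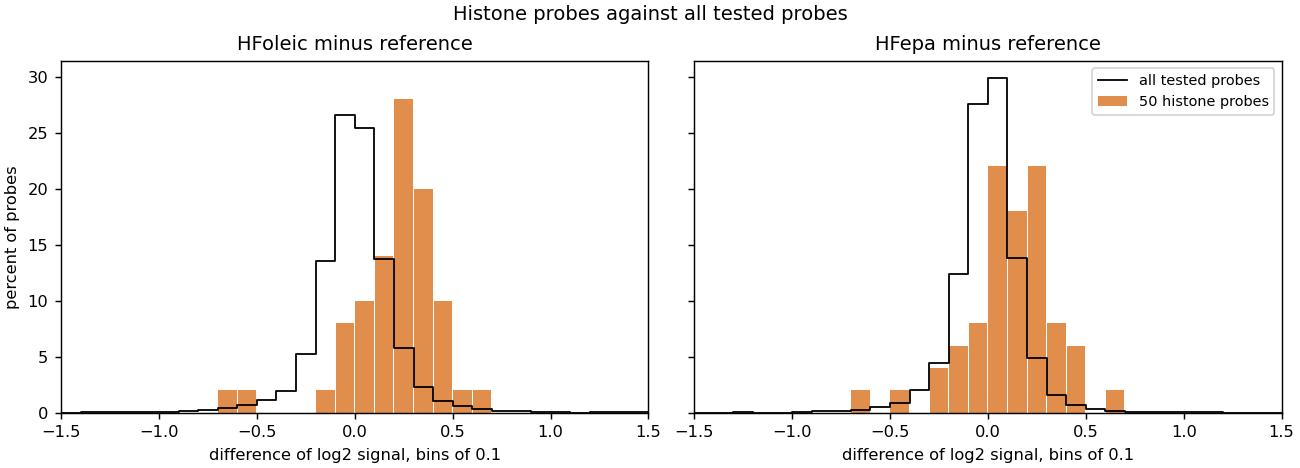
Distribution of the difference of log2 signal in bins of 0.1 for the 50 tested histone probes (orange bars) and all 30003 tested probes (black line), as percent of the probes in each set, for HFoleic minus reference (left) and HFepa minus reference (right). The histone probes had a median of 0.27 on the left and 0.11 on the right, and all probes had medians of -0.001 and 0.005.

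The H4 genes, which all encode the same protein, gave the most calls. At the Hist1h4j probe printed above, the log2 signal ran from 8.01 to 8.55 in reference (median 8.26), from 8.52 to 8.91 in HFoleic (median 8.67) and from 8.14 to 8.75 in HFepa (median 8.61). All 8 HFoleic mice were above the reference mean and 7 of them above every reference mouse, and the groups overlapped. The difference was 0.40 ± 0.08 (SE, n = 8 and 9, adjusted p = 0.00484 in limma).

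Hist1h4d was read by 2 probes, and both were called. The one printed above ran from 11.72 to 12.08 in reference (median 11.82), from 11.93 to 12.41 in HFoleic (median 12.14) and from 11.80 to 12.30 in HFepa (median 12.17). Of the HFoleic mice, 6 of 8 were above every reference mouse. The difference was 0.32 ± 0.07 (SE, limma adjusted p = 0.00616), and at the second, brighter probe, chr13:23673749-23673808, it was 0.29 ± 0.08 (adjusted p = 0.0342).

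Hist1h4k was called at the probe printed above, with a difference of 0.33 ± 0.09 (SE, limma adjusted p = 0.0188), whereas at its brighter probe, chr13:21842063-21842122, the difference of 0.28 ± 0.09 was not called (adjusted p = 0.0614). At the first of these the HFoleic mice ran from 10.17 to 10.61 (median 10.29) and the reference mice from 9.88 to 10.36. The brighter probe of Hist1h4k and that of Hist1h4d share at least 20 bases.

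Signal at the probes for H4 genes of other clusters was higher as well. Hist2h4 (chr3:96066953-96067012) ran from 12.60 to 12.95 in reference (median 12.75), from 12.79 to 13.22 in HFoleic (median 13.06) and from 12.57 to 13.19 in HFepa (median 13.11). Hist4h4 (chr6:136752717-136752776) ran from 10.18 to 10.52 in reference (median 10.33), from 10.39 to 10.92 in HFoleic (median 10.59) and from 10.22 to 10.86 in HFepa (median 10.70). At both genes 7 of 8 HFoleic mice were above every reference mouse. The differences between HFoleic and reference were 0.31 ± 0.08 for Hist2h4 (SE, limma adjusted p = 0.0159) and 0.29 ± 0.08 for Hist4h4 (adjusted p = 0.0299). Neither probe shares 20 bases with another histone probe, but whether they bind transcripts of other H4 genes was not tested.

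Hist1h4i (chr13:22133139-22133198) had the largest difference of the H4 genes, 0.49 ± 0.14 (SE, limma adjusted p = 0.0341). Its signal ran from 7.27 to 7.99 in reference (median 7.54), from 7.55 to 8.46 in HFoleic (median 8.05) and from 7.41 to 8.29 in HFepa (median 7.49). Here 7 of 8 HFoleic mice but only 3 of 7 HFepa mice were above the reference mean. Of the H4 probes that were not called, Hist1h4m and Hist1h4c differed by 0.43 and 0.30, and Hist1h4h was the only one with a negative difference, -0.11 ± 0.12 (adjusted p = 0.676).

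**Figure D2:**
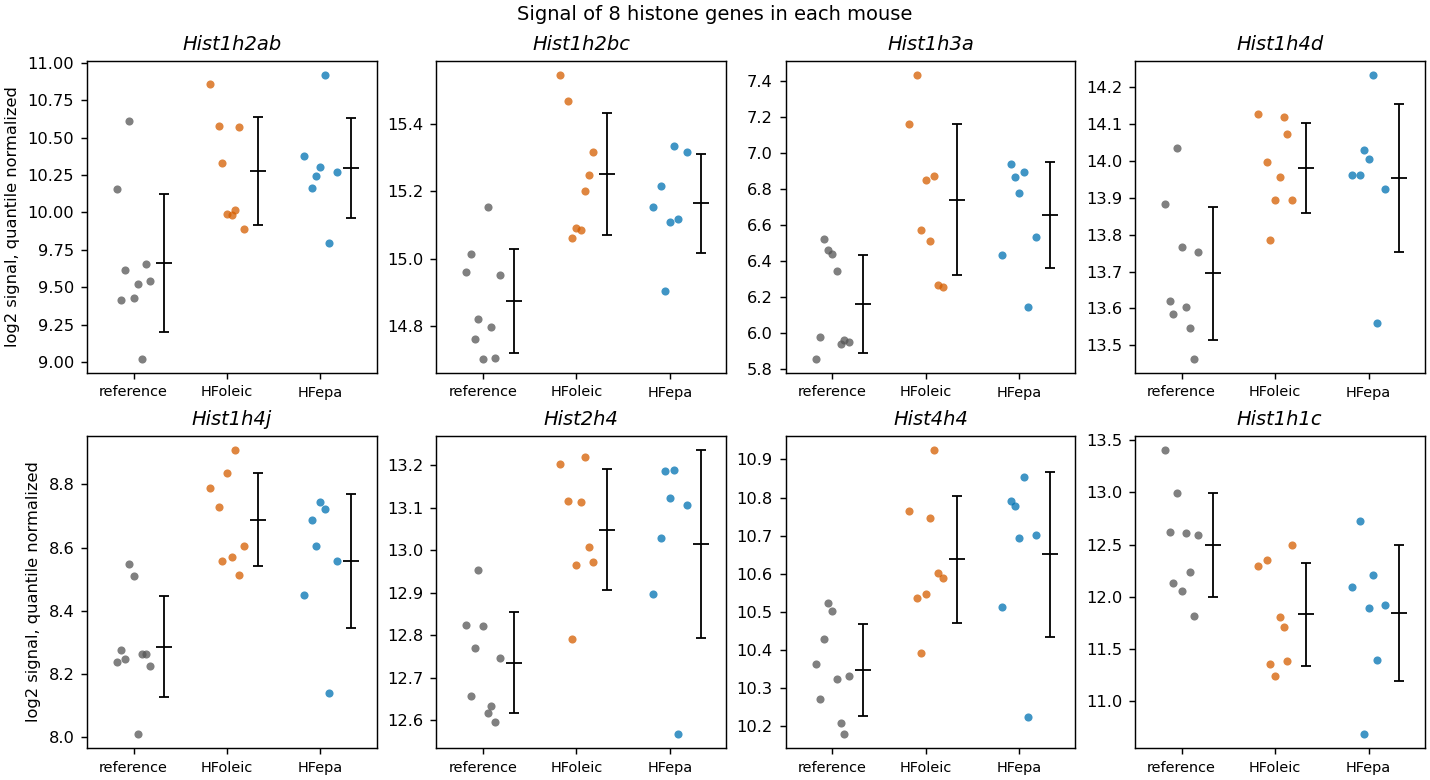
Quantile-normalized log2 signal of 8 histone genes in each mouse (points), at the brightest tested probe of each gene, with the mean and SD of each group (bars) for reference (n = 9), HFoleic (n = 8) and HFepa (n = 7). Each panel has its own axis. In the 7 genes other than Hist1h1c the HFoleic mean lies 0.29 to 0.61 above the reference mean, and in Hist1h1c it lies 0.66 below, with overlap between the groups in every panel.

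Among the H2B genes, Hist1h2bc had the largest difference and the smallest adjusted p. Its probe (chr13:23784254-23784313) lies past the stem-loop, and Hist1h2bc is among the histone genes known to make polyadenylated transcripts in cells that do not divide. The signal ran from 14.70 to 15.15 in reference (median 14.82), from 15.06 to 15.54 in HFoleic (median 15.23) and from 14.90 to 15.33 in HFepa (median 15.15). All 8 HFoleic mice were above the reference mean and 5 above every reference mouse. The difference was 0.38 ± 0.08 (SE, limma adjusted p = 0.00516).

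Hist1h2bb was called at both of its probes, with differences of 0.30 ± 0.08 (SE, limma adjusted p = 0.0295, chr13:23838827-23838886) and 0.27 ± 0.08 (adjusted p = 0.0481, chr13:23838704-23838763). At the first, brighter one, the values ran from 12.67 to 13.18 in reference (median 12.84), from 12.91 to 13.52 in HFoleic (median 13.18) and from 12.88 to 13.34 in HFepa (median 13.18). Hist1h2ba, known as the H2B of the testis, was called with a difference of 0.27 ± 0.08 (adjusted p = 0.0392, chr13:24025811-24025870). Its reference values ran from 12.20 to 12.76 (median 12.36) and its HFoleic values from 12.47 to 12.97 (median 12.69), so that here too the groups overlapped. Whether the Hist1h2ba probe also binds transcripts of other H2B genes was not tested. Hist1h2bm had nearly the same difference, 0.28, and missed the threshold (adjusted p = 0.0511). Hist1h2bf, Hist2h2be and its second probe were the 3 H2B probes with negative differences, between -0.08 and -0.01, and none was called.

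In the H3 genes only Hist1h3a was called. Its probe on the stem-loop (chr13:23853756-23853815) was dim, with values from 5.86 to 6.52 in reference (median 5.98), from 6.26 to 7.43 in HFoleic (median 6.71) and from 6.15 to 6.94 in HFepa (median 6.78). Of the 8 HFoleic mice, 5 were above every reference mouse. The difference was 0.58 ± 0.15 (SE, limma adjusted p = 0.0211). The probe shares its loop sequence with probes for Hist1h3i, Hist1h2bf, Hist2h2bb and Hist3h2ba, and over the 4 of these 5 that were tested the averaged signal was not called (0.19, adjusted p = 0.106). Hist2h3c2 had differences of 0.46 and 0.41 at its 2 probes without a call (adjusted p = 0.244 and 0.246). Hist1h3d, well above background on every array, differed by -0.06 ± 0.06 (adjusted p = 0.639).

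Among the H2A genes a single probe was called. All 13 tested probes were higher in HFoleic than in reference, with differences from 0.05 to 0.61, and only Hist1h2ab was called. Its probe on the stem-loop (chr13:23843392-23843451) ran from 9.02 to 10.61 in reference (median 9.54), from 9.89 to 10.86 in HFoleic (median 10.17) and from 9.80 to 10.92 in HFepa (median 10.27). The difference was 0.61 ± 0.18 (SE, limma adjusted p = 0.0370), although only 1 HFoleic mouse was above the highest reference mouse. The 9 tested probes of the group that shares coding sequence differed by 0.14 to 0.33, with 0 calls. Of these, Hist2h2aa2 ran from 14.21 to 14.78 in reference (median 14.46), from 14.46 to 14.79 in HFoleic (median 14.62) and from 14.38 to 14.74 in HFepa (median 14.60), a difference of 0.14 ± 0.07 between HFoleic and reference (adjusted p = 0.252).

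The H2A count moved with reference replicate 5. In that mouse the mean of the H2A probes was 0.458 above the group mean, where the other 8 reference mice lay between -0.202 and 0.149. Without it, 6 of the 13 H2A probes were called higher instead of 1. The added 5 were Hist1h2aa, Hist1h2af, Hist1h2ag, Hist1h2ak and Hist1h2an, with differences of 0.19 to 0.35, all from the group of near copies. Hist1h3c was added among the H3 probes (0.35, limma adjusted p = 0.0332), while Hist1h2ba and 1 probe of Hist1h2bb were lost (0.26 and 0.24).

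Among the linker histone genes no probe was called. Of 7 tested H1 probes, 0 were called in either direction, with 3 at an unadjusted p under 0.05 in limma, where 21.1% of all tested probes were, and their median difference was 0.08. Hist1h1c, which encodes a main linker histone of cells that have stopped dividing, was read by 2 probes. At the brighter one (chr13:23832018-23832077), past the stem-loop, its signal ran from 11.81 to 13.40 in reference (median 12.59), from 11.24 to 12.50 in HFoleic (median 11.76) and from 10.69 to 12.73 in HFepa (median 11.92). In HFoleic 7 of 8 mice were below the reference mean and 5 below every reference mouse. The difference of -0.66 ± 0.25 did not pass the test (SE, limma adjusted p = 0.107), nor did that of -0.58 ± 0.21 at the probe on the stem-loop (adjusted p = 0.104). The second probe was called lower when reference replicate 8 was left out (-0.67, adjusted p = 0.0447). Hist1h1a differed by 0.34 (adjusted p = 0.157, with 1 reference value missing because its spot was marked as an outlier), and Hist1h1d by 0.35 (adjusted p = 0.342).

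**Figure D3:**
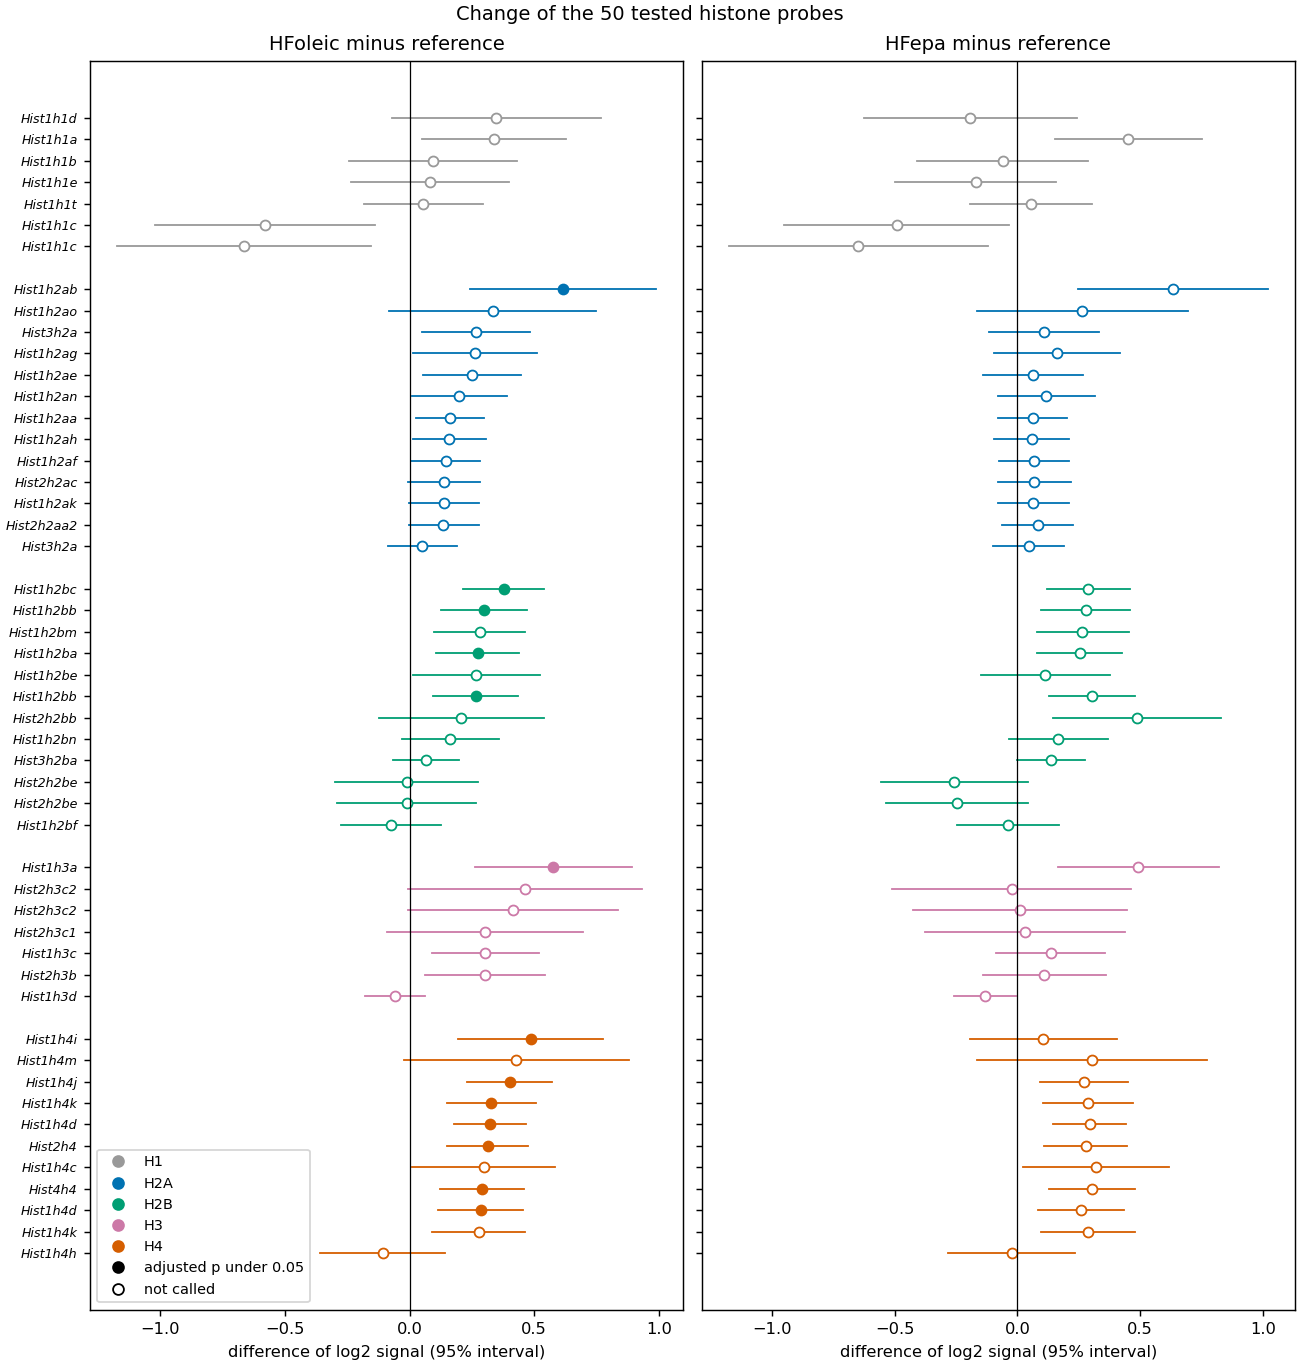
Difference of log2 signal with its 95% interval for each of the 50 tested histone probes, sorted within histone type, for HFoleic minus reference (left) and HFepa minus reference (right). Filled points were called at an adjusted p under 0.05 (13 on the left and 0 on the right), and a gene with 2 tested probes has 2 lines.

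By cluster, 11 of 36 probes of Hist1 were called higher in HFoleic, 1 of 10 of Hist2, 0 of 3 of Hist3 and the single probe of Hist4h4. Of all tested probes, 4.05% were called higher. The median differences of the first 3 were 0.27, 0.26 and 0.07. By position class, 10 of 32 probes classed as upstream of the stem-loop, 2 of 9 as on it and 1 of 9 as past it were called. The upstream calls include the 3 H4 probes printed above, whose values are not independent of each other. Their median differences were 0.27, 0.25 and 0.27. No test of these differences between clusters or positions was made.

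All 13 called probes were higher in HFoleic on each of the 3 slides and in both rows of the slides. The median difference of the 50 probes was 0.18, 0.28 and 0.23 on slides 1, 2 and 3, each of which held 2 or 3 HFoleic and 3 reference mice. The 3 probes for Hist1h2bc, Hist1h4d (the one printed above) and Hist1h4j stayed called in each of the 24 fits that left out 1 mouse and in each of the 11 other settings under which single probes were tested. The count of 13 fell to 6 without HFoleic replicate 5, to 7 without HFoleic replicate 3 or reference replicate 2, and to 8 without HFoleic replicate 2 or reference replicate 1 or 3. Over all tested probes, 1113 of 29871 were called higher without HFoleic replicate 5, against 1214 of 30003 with all mice. In the other fits named here, 875 of 30081 (without reference replicate 1) to 1181 of 30463 (without reference replicate 2) were.

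The second question was whether the histone genes also differed from reference in the high-fat mice of the omega 3 lineage. Of the 50 probes, 0 were called in either direction by limma or by the methods' t-test (that of the study, on the 2 groups alone), where limma called 0.19% of all tested probes higher and 0.203% lower. At an unadjusted p under 0.05, limma had 20 of 50 (40%), against 13.5% of all tested probes. The methods' t-test had 18 of 50, against 3472 of all 30003. The median difference was 0.11, against 0.005 over all probes, with 39 of 50 higher. By type it was 0.29 for H4, 0.21 for H2B, 0.07 for H2A, 0.03 for H3 and -0.17 for H1. This comparison uses the same 9 reference mice as the first. Without reference replicate 5 the median was 0.14 with 42 of 50 higher, and without HFepa replicate 7 it was 0.14 with 41 of 50 higher, each with 0 calls.

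In HFepa, the 13 probes called in HFoleic had differences from reference of 0.11 to 0.63, and since both comparisons use the same reference mice these values are a description. The smallest adjusted p was that of the Hist1h4d probe printed above (0.30 ± 0.07, SE, limma adjusted p = 0.0611, 6 of 7 mice above the reference mean). At the brighter Hist1h4d probe the difference was 0.259 ± 0.085 (adjusted p = 0.159). Hist1h2ab had the largest difference (0.63 ± 0.19, adjusted p = 0.116, 7 of 7 mice). It was followed by Hist1h3a (0.49 ± 0.16, adjusted p = 0.150, 6 of 7 mice) and by Hist2h2bb, a dim stem-loop probe for H2B (0.49 ± 0.17, adjusted p = 0.172, 7 of 7 mice). The Hist2h2bb value fell to 0.30 without HFepa replicate 4 (adjusted p = 0.270), which had 8.09 where the other HFepa mice reached at most 7.01. Hist1h2bc differed by 0.29 ± 0.08 (adjusted p = 0.102, 7 of 7 mice). Hist1h4j, Hist1h4k, Hist2h4 and Hist4h4 differed by 0.27 to 0.30, and 6 of 7 HFepa mice were above the reference mean in each.

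At several of these H4 genes 1 HFepa mouse lay low. HFepa replicate 2 had 9.87 at the Hist1h4k probe printed above, where the other 6 mice ran from 10.27 to 10.52. The mean of this mouse over all H4 probes was -0.079 against 0.183 to 0.392 in the others. The Hist1h4d probe printed above was called higher in HFepa with the row on the slide as a block (0.31, adjusted p = 0.0423 in limma) and without reference replicate 7 (adjusted p = 0.0478). Hist1h2ab was called without that same reference mouse (0.75, adjusted p = 0.0496), and the dimmer Hist1h2bb probe without reference replicate 6 (0.36, adjusted p = 0.0388).

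The lowest values relative to reference were again at Hist1h1c, -0.65 ± 0.26 at its brighter probe and -0.49 ± 0.22 at the other (SE, limma adjusted p = 0.252 and 0.328), and then at Hist2h2be (-0.25 ± 0.14, adjusted p = 0.476) and Hist1h1d (-0.19 ± 0.21, adjusted p = 0.764). Hist2h3c2, which differed by 0.46 and 0.41 in HFoleic, stood at -0.02 and 0.01 in HFepa, with 3 of 7 mice above the reference mean at each of its probes. Hist1h3d differed by -0.13 ± 0.06 (adjusted p = 0.339), and Hist1h2ba, Hist2h2aa2 and Hist1h4i by 0.25, 0.08 and 0.11.

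**Figure D4:**
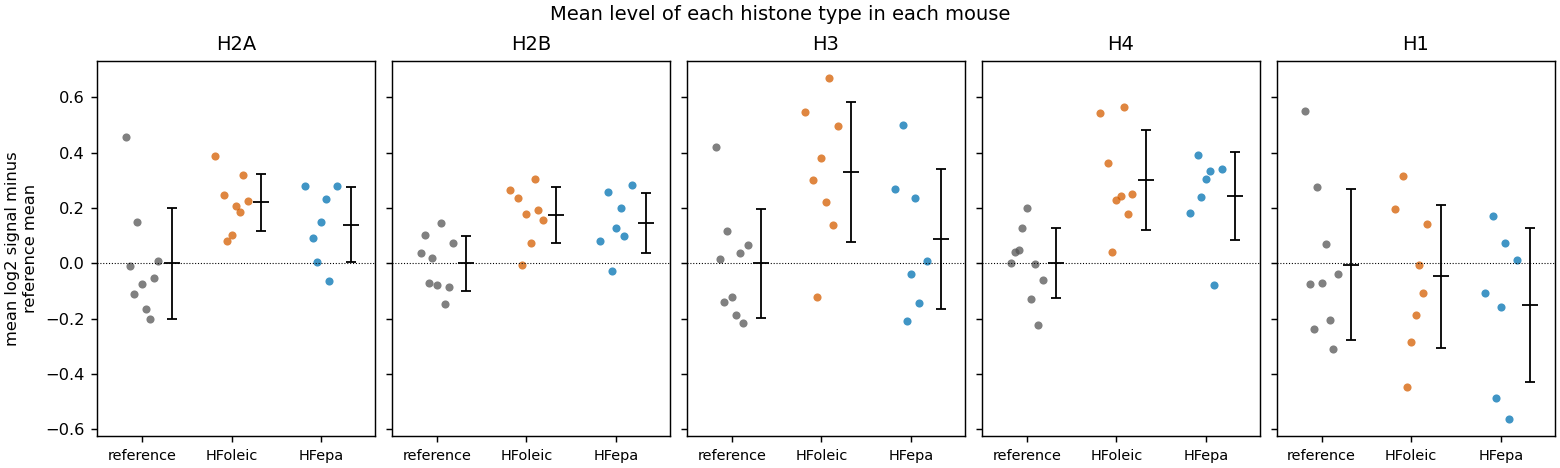
Mean log2 signal of the tested probes of each histone type in each mouse (points), counted from the mean of the reference group at each probe, with the mean and SD of the groups (bars) for reference (n = 9), HFoleic (n = 8) and HFepa (n = 7). For H4 the means were 0.302 in HFoleic and 0.245 in HFepa, and for H1 they were -0.047 and -0.151.

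Averaged over the probes of a type, the mice of the 3 groups overlapped everywhere. For H4 the mean level was 0 ± 0.127 in reference (SD, n = 9), 0.302 ± 0.18 in HFoleic (n = 8) and 0.245 ± 0.158 in HFepa (n = 7). All 8 HFoleic and 6 of 7 HFepa mice were above the reference mean. For H2B the levels were 0.175 ± 0.101 and 0.146 ± 0.108, and for H2A 0.22 ± 0.102 and 0.138 ± 0.136. The H3 probes had the widest spread of the core histones, 0.329 ± 0.253 in HFoleic and 0.089 ± 0.254 in HFepa. Over all 50 probes the level was 0.205 ± 0.14 in HFoleic and 0.116 ± 0.144 in HFepa, against 0 ± 0.129 in reference.

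The third question was whether the lineages differed on the high-fat diet, for which the mice of HFepa and HFoleic were set against each other. Here 0 of the 50 probes were called, and 0% of all tested probes. At an unadjusted p under 0.05, limma had 2 of 50 (4%), against 9.7% of all tested probes. The methods' t-test had 4 of 50, against 3484 of all 30003. The median difference of HFepa minus HFoleic was -0.07, with 36 of 50 probes lower in HFepa. The lowest values were at Hist1h1d (-0.54 ± 0.22, SE, adjusted p = 0.407 in limma), at the brighter probe of Hist2h3c2 (-0.49 ± 0.24, adjusted p = 0.527) and at Hist1h4i (-0.38 ± 0.15, adjusted p = 0.396). For Hist1h1d, HFepa ran from 5.58 to 6.94 (median 6.29) and HFoleic from 6.15 to 7.49 (median 6.97), and 6 of 7 HFepa mice were below the HFoleic mean. The highest were at Hist2h2bb (0.28 ± 0.17, adjusted p = 0.613), Hist1h1a (0.12 ± 0.15, adjusted p = 0.851) and Hist1h4h (0.08 ± 0.13, adjusted p = 0.885). Without HFepa replicate 4 the Hist2h2bb difference was 0.09 (adjusted p = 0.815), below that of Hist1h1a with all mice.

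The 13 probes called in HFoleic differed by -0.38 to 0.04 between HFepa and HFoleic. They were picked for high values in these same HFoleic mice, which by itself can pull this difference below 0. The values and intervals given here for them are therefore a description. For Hist1h2bc the 95% interval of this difference ran from -0.26 to 0.09, for Hist1h4j from -0.31 to 0.05 and for the Hist1h4d probe printed above from -0.18 to 0.13. At Hist1h4k the 2 probes stood at -0.04 and 0.01, and at Hist1h2bb at -0.02 and 0.04. Over the 50 probes, 36 had an interval within 0.5 on either side of 0 on the log2 scale, and the intervals of the other members reached further. The limit of 0.5 exceeds the median of 0.27 in HFoleic minus reference, so an interval within it can still hold a difference of that size. The median difference was -0.01 on slides 1 and 3 and -0.18 on slide 2.

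Genes that act with the histones were read from lists. Over all 15 lists 12 of 146 tested genes (8.22%) were called in HFoleic minus reference, near the 7.23% of all tested probes called in either direction. Of 11 tested replication-independent histone variants, which are expressed throughout the cell cycle, 2 were called higher in HFoleic than in reference and 0 lower: H2afv (0.24 ± 0.06, SE, limma adjusted p = 0.0149) and H2afx (0.28 ± 0.08, adjusted p = 0.0363), which is phosphorylated at DNA breaks and partly made like a replication-dependent histone. The median of this list was 0.05, and without reference replicate 5 it held 1 call. Of 17 tested genes of histone transcription and 3′ end processing 0 were called, with 3 at an unadjusted p under 0.05 (21.1% of all tested probes were), a median of -0.01 and the smallest p at Pou2f1, the factor that binds the octamer element (-0.23, adjusted p = 0.0837). Of 23 tested histone chaperones and deposition factors, 1 was called higher, Rbbp4 (0.41 ± 0.06, adjusted p = 0.000541), and 2 lower, the chaperone Nap1l1 (-0.29, adjusted p = 0.00861) and Mms22l (-0.64, adjusted p = 0.00433).

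Genes of the cell cycle were read by phase, and no test of a difference between the phases was made. Of 23 tested genes of DNA replication and the G1/S transition, 3 were called higher in HFoleic and 0 lower, with a median of 0.15 and 19 of 23 higher, where 4.05% of all tested probes were called higher. Without reference replicate 5, 6 of the 23 were called higher, with a median of 0.26 and 17 of 23 higher. The 3 called with all mice were Pola1, the catalytic subunit of the polymerase that starts new strands (0.41 ± 0.09, SE, limma adjusted p = 0.00617), Tyms, which makes thymidylate (0.31 ± 0.07, adjusted p = 0.00852), and Mcm4, of the replicative helicase (0.27 ± 0.07, adjusted p = 0.0174). Pcna, the sliding clamp, differed by -0.07 (adjusted p = 0.570) and Rrm2, of ribonucleotide reductase, by -0.33 (adjusted p = 0.0855). Of 13 tested genes of G2 and mitosis 0 were called and 0 had an unadjusted p under 0.05 in limma, with a median of -0.07 and the smallest p at Birc5 (-0.22, adjusted p = 0.759). This direction rested on reference replicate 5, and without it 13 of 13 were higher in HFoleic, with a median of 0.18 and 0 calls. The median of the G1/S list in HFepa minus reference was 0.05 and that of G2 and mitosis -0.17, with 0 calls in each and 3 and 0 genes at an unadjusted p under 0.05, and the smallest p were at Cdk2 (0.24, adjusted p = 0.307) and Ube2c (-0.40, adjusted p = 0.619). Without reference replicate 5 these medians were 0.11 and 0.08, so that the direction of the G2 and mitosis list turned here too, with 0 calls.

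In HFepa against reference, 0 genes of any of the 15 lists were called, and the smallest p among the histone-related lists were at Rbbp4 (0.25, limma adjusted p = 0.0630), H2afv (0.24, adjusted p = 0.0736) and Ncbp2 (0.22, adjusted p = 0.137). Between HFepa and HFoleic 0 were called as well, with E2f2, a transcription factor of the G1/S transition, lowest in p (-0.56, adjusted p = 0.167), followed by Mcm4 (-0.28, adjusted p = 0.189).

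Markers of cell types that divide or that carry histone transcripts moved as follows in HFoleic minus reference. Erythroid markers had 0 of 5 tested genes called, a median of -0.23 and a mean level per mouse of -0.426 to 0.238, against -0.511 to 0.515 in reference. The erythroid genes Ahsp and Epb4.2 were above background on 2 and 1 of 24 arrays. Lymphocyte markers had 0 of 7 called (median -0.10, -0.419 to 0.337 per mouse, against -0.412 to 0.448 in reference), with Cd79a above background on 1 array. Markers of neutrophils and myeloid precursors had 0 of 6 called (median 0.14, -0.08 to 0.654 per mouse, against -0.206 to 0.141), with Ngp above background on 0 arrays and Ltf on 1. Kupffer cell and macrophage markers had 0 of 8 called (median 0.17, -0.418 to 0.441 per mouse, against -0.672 to 0.437). Of the 8 hepatocyte markers, Cps1 and Tat were called lower (-0.89 and -0.63, adjusted p = 0.00166 and 0.00859). Sox9 was called lower among 4 tested cholangiocyte markers (-0.65, adjusted p = 0.0279), and Lrat higher among 7 of stellate cells and fibroblasts (0.56, adjusted p = 0.00150). Endothelial (6 tested), adipocyte (5) and exocrine pancreas (3) markers had 0 calls and medians of 0.01, 0.02 and -0.01. At an unadjusted p under 0.05, limma had 4 hepatocyte, 2 stellate cell and 1 each of the cholangiocyte, neutrophil, Kupffer cell and adipocyte markers. It had 0 of the erythroid, lymphocyte, endothelial and pancreas markers, and 21.1% of all tested probes. Without reference replicate 5 the medians of the stellate cell and cholangiocyte lists were 0.04 and -0.09, against -0.09 and -0.23 with it.

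In HFepa minus reference, 0 markers of any cell type were called. Kupffer cell and macrophage markers were higher in 8 of 8 genes (median 0.25, -0.146 to 0.603 per mouse), endothelial markers in 6 of 6 (median 0.14, -0.033 to 0.29 per mouse) and exocrine pancreas markers in 3 of 3 (median 0.12, -0.044 to 1.171 per mouse, the highest being HFepa replicate 7). Neutrophil markers had a median of 0.14 and lymphocyte markers one of 0.02. Erythroid markers were lower in 5 of 5 genes (median -0.18, or -0.09 with 4 of 5 lower without HFepa replicate 7), and those of adipocytes, cholangiocytes and stellate cells had medians of -0.20, -0.11 and -0.07. Without reference replicate 5 the cholangiocyte and stellate cell medians were 0.10 and 0.12, and the adipocyte median was -0.07 (-0.06 without HFepa replicate 7). At an unadjusted p under 0.05, limma had 3 hepatocyte markers, 1 each of the cholangiocyte, stellate cell and endothelial lists and 0 of the others, where 13.5% of all tested probes were. The part of these cell types in the histone results of either comparison was not tested.

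Finally, 18 probes were not tested because of low signal, and 13 of the 56 genes had no tested probe. Of these 18, 6 were above background on no array: those for Hist1h2ac, Hist1h2al, Hist1h2bp, Hist2h2ab, Hist3h2bb-ps and 1 of the 2 for Hist1h2ai. The other Hist1h2ai probe was above background on 8 arrays and that for Hist1h2bg on 10, the most of any (5 of 9 reference, 4 of 8 HFoleic and 1 of 7 HFepa mice). A second probe for Hist3h2ba reached 4 arrays, Hist1h3f and Hist1h3i 3 each, Hist1h2bq and a second probe for Hist1h1d 2 each. Hist1h2ad, Hist1h3g, Hist2h2aa1 and the second probes for Hist2h2ac and Hist2h2bb were above background on 1 array each. Of the 17 probes classed as past the stem-loop 8 were not tested, of the 12 classed as on it 3, and of the 39 classed as upstream 7.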

How the data were processed

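For each array the authors deposited the scanner output of Agilent Feature Extraction 10.10.1.1, in which the median, mean and background signal and the processed signal are intensities, and flags are 0 or 1, per the file headers. A second deposited file holds the authors' log2 values after their filter and quantile normalization, with rows for 51 of the 68 histone probes. From the scanner files, control spots and spots marked as outliers were left out, the log2 median signal was taken, and repeated spots were averaged per probe. Probes marked well above background in 75% or more of the mice of some group were kept (30003 of 56605) and quantile normalized. A group-means model was fitted to all 24 arrays with limma 3.58.1 (lmFit, eBayes, R 4.3.3), two-sided, with Benjamini-Hochberg adjustment over the 30003 probes in each comparison. A gene with several probes was read from its brightest tested probe unless each probe is given.

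Named were members called in any comparison, the 3 largest rises and falls in each, the most widely detected member of each type, and members whose probes differed in call or sign, and from the lists, called genes and the smallest p. Other members are named to account for all of them, after their values were seen. The members and gene lists were chosen with earlier results of these data known. The fit was tested on simulated data. The number of arrays limits the precision. Alternatives were other background corrections and normalizations, filters, blocks, tests and the deposited table.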

Additional observations from a re-analysis of the deposited data

Results flagged for a closer look

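Of 78 groups of values examined (25 probes and the mean histone level, in 3 groups each), 5 held a mouse whose distance to its neighbour was large for the range of its group by Dixon's criterion. Chance alone gives about 1 in 20 groups. Hist1h2ba had 12.363 in HFepa replicate 7, where the other 6 mice ran from 12.611 to 12.799. Hist1h4k had 9.87 at its called probe in HFepa replicate 2, against 10.269 to 10.518 in the others. Hist1h4h had 7.103 in HFoleic replicate 5, against 6.617 to 6.818. Hist2h2bb had 7.18 in HFoleic replicate 3, against 6.363 to 6.744, and 8.094 in HFepa replicate 4, against 6.533 to 7.006. At no named probe did all HFoleic mice lie on one side of the reference mean and all HFepa mice on the other.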

How the results depend on the processing

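The call of 13 histone probes higher in HFoleic, where 1214 of all 30003 tested probes were, moved with the setting. Without a filter on dim probes it was 6 of 68, where 822 of all 56605 were called higher. With the methods' t-test it was 7 of 50, where 972 of all 30003 were. In HFepa against reference, 1 was called with the slide row as a block, where 118 of all 30003 were called in either direction. Leaving out 1 mouse gave 6 to 17 probes called higher and 0 to 1 lower in HFoleic (1 without reference replicate 8). Over all tested probes, 875 of 30081 (without reference replicate 1) to 1728 of 30630 (without reference replicate 8) were called higher there. In HFepa it gave 0 to 2 higher (2 without reference replicate 7, where 78 of all 30098 were called in either direction). Over the fixed gene lists, 0 to 2 were called in HFepa against reference and 0 to 1 in HFepa against HFoleic.

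Values near 0 with no call changed sign. Hist1h2bf in HFoleic minus reference was 0.003 with the processed signal and 0.021 with normexp, and Hist1h3d 0.001 with the processed signal. In HFepa minus HFoleic, Hist1h4k at its brighter probe was -0.007 with the processed signal and -0.016 with the replicate block, and leaving out 1 mouse gave it -0.034 to 0.085. The same took its other probe from -0.072 to 0.036, the Hist1h2bb probes from -0.061 to 0.028 and -0.001 to 0.073, and in HFepa minus reference the Hist2h3c2 probes from -0.143 to 0.126 and -0.104 to 0.13.

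With the replicate number as a block, 9 probes were called higher in HFoleic, where 950 of all 30003 tested probes were. Same-numbered mice of different groups had correlations of their deviations from -0.298 to 0.348 over 22 pairs, 3 of them above 0.1. Of 24 mice, 3 correlated best with their own number. These values did not show a general pairing by number, and whether same-numbered mice shared a litter or cage was not tested. Averaging probes of shared sequence, leaving out mice for the mean level and the alternatives for the lists were added after seeing the data. The 3 median differences and the mean levels moved by less than the spread between mice (SD 0.138) in every setting run. That spread is larger than the median of HFepa minus reference (0.11) and the size of that of HFepa minus HFoleic (-0.07). For these medians the bound therefore does not show that the sign held.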
